A study of Paspalum vaginatum with 72 samples.

Results

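Roots of the salt-tolerant accession USA17-18 were compared after 5 days and after 24 h of salt, to describe how gene expression moved between the first day of salt and a longer exposure. Seashore paspalum (Paspalum vaginatum) is a turfgrass of salty shores. The comparison used 6 of the 72 RNA-seq libraries of the series, 3 per time point, chosen by accession, tissue and time as labelled. The other libraries were leaves and roots of USA17-18 and of the salt-sensitive accession USA17-26, each with a non-stressed group and groups at 8 h, 12 h, 24 h, 48 h and 5 days of salt, with 3 libraries per group. All plants grew from stolons in hydroponic culture in full nutrient solution. The labels give 400 mM NaCl at every salt time. The study's methods describe a rise of 100 mM per day up to 400 mM, so the concentration reached by 24 h cannot be settled from these sources. Each library was described as a set of plants of one treatment, and tolerance is represented by 1 accession. The p-values therefore measure the spread between these libraries, which may be technical in part, and do not extend to other accessions. The sources used here do not state the hour of day at collection.

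Salt reaches a plant through its root, where sodium is taken up, pumped back, stored in vacuoles or loaded into the xylem. Transporters of the HKT family can take sodium back out of the xylem sap before it reaches the leaves. Roots also take up nitrate, phosphate and iron, and grasses acquire iron by secreting phytosiderophores, chelators of the mugineic acid family that are made from methionine. Salt is known to slow root growth at first, and growth can later resume at a lower pace.

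The values were FPKM (fragments mapped to a gene, scaled to transcript length and to all mapped fragments), tested on the log2(FPKM + 1) scale, which understates the change of low genes. The 6 libraries had FPKM sums of 687507 to 720786 and 19031 to 20088 genes at 1 FPKM or more. Relative depth, estimated from the value of 1 fragment in 113 genes, was 0.896 to 1.04 at 5 days and 0.955 to 1.08 at 24 h, so depth was close between the times. The summed level of 63 root marker genes was 1569 to 1886 FPKM at 5 days and 1010 to 1248 FPKM at 24 h. The words that define this set include nicotianamine synthase and iron-phytosiderophore, which also define the list of iron and metal uptake genes below. The summed level of 3 Rubisco small subunit genes, which are defining genes of green leaf, was 0.21 to 0.82 FPKM over the 6 root libraries. The summed level of 12 chlorophyll a-b binding genes, also of green leaf, was 15.6, 16.1 and 167 FPKM at 5 days, with 167 FPKM in replicate 3, and 18.4 to 53 FPKM at 24 h.

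Some of the libraries stood apart. Replicate 3 at 5 days correlated with the other 5-day libraries at r = 0.947 and 0.942, against 0.975 between those, over all genes tested. Its 68 leaf marker genes summed to 1102 FPKM, against 639 and 665 FPKM in the other 5-day libraries and 528 to 640 FPKM at 24 h. Its 2 Casparian strip membrane genes, markers of the root endodermis, summed to 33.1 FPKM, against 7.04 and 7.31 FPKM in the other 5-day libraries. Replicate 2 at 24 h correlated with the other 24 h libraries at 0.953 and 0.971, against 0.984 between those. A set of 23 genes was expressed in every sensitive root library and had a low median over the tolerant root libraries. In replicate 2 at 5 days 15 of them reached 1 FPKM, and the median of the 23 was 18.2% of the sensitive level. In the other 5 libraries of the comparison 0 of the 23 reached 1 FPKM. The remaining tolerant root libraries were not examined for these genes. The 10 genes that marked the tolerant accession were chosen for expression in every tolerant root library. Their presence in all 6 libraries was fixed by that choice. The part of these features in the results was not tested, and counts without each library are given beside the results. In bulk roots, fewer cells of a type and less RNA per cell cannot be told apart.

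Of 22194 genes tested, 246 (1.11%) were differentially expressed genes (DEGs), with a limma adjusted p of 0.05 or less and a change of 1.5 or more in either direction on the log2 scale. Of these, 136 (0.613%) were higher and 110 (0.496%) were lower at 5 days than at 24 h. The median DEG changed by 1.94 and by -1.98 on the log2 scale, within a range of 4.02 to -3.88, and the median of all genes was 0.02. In 243 of the DEGs the 3 libraries of one time did not overlap the 3 of the other, which was also so for 23.9% of all genes tested (11.2% higher and 12.7% lower). Leaving out both libraries that stood apart left 62 DEGs, of which 46 were among the 246. Without replicate 2 at 24 h there were 119 DEGs, of which 99 were among the 246. Without replicate 3 at 24 h there were 144, of which 128 were among them. Without replicate 3 at 5 days there were 135, of which 102 were among the 246. Without replicate 2 at 5 days there were 251, but only 163 of these were among the 246. A set of 54 DEGs, 27 higher and 27 lower, passed whichever one of the 6 libraries was left out.

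**Figure D1:**
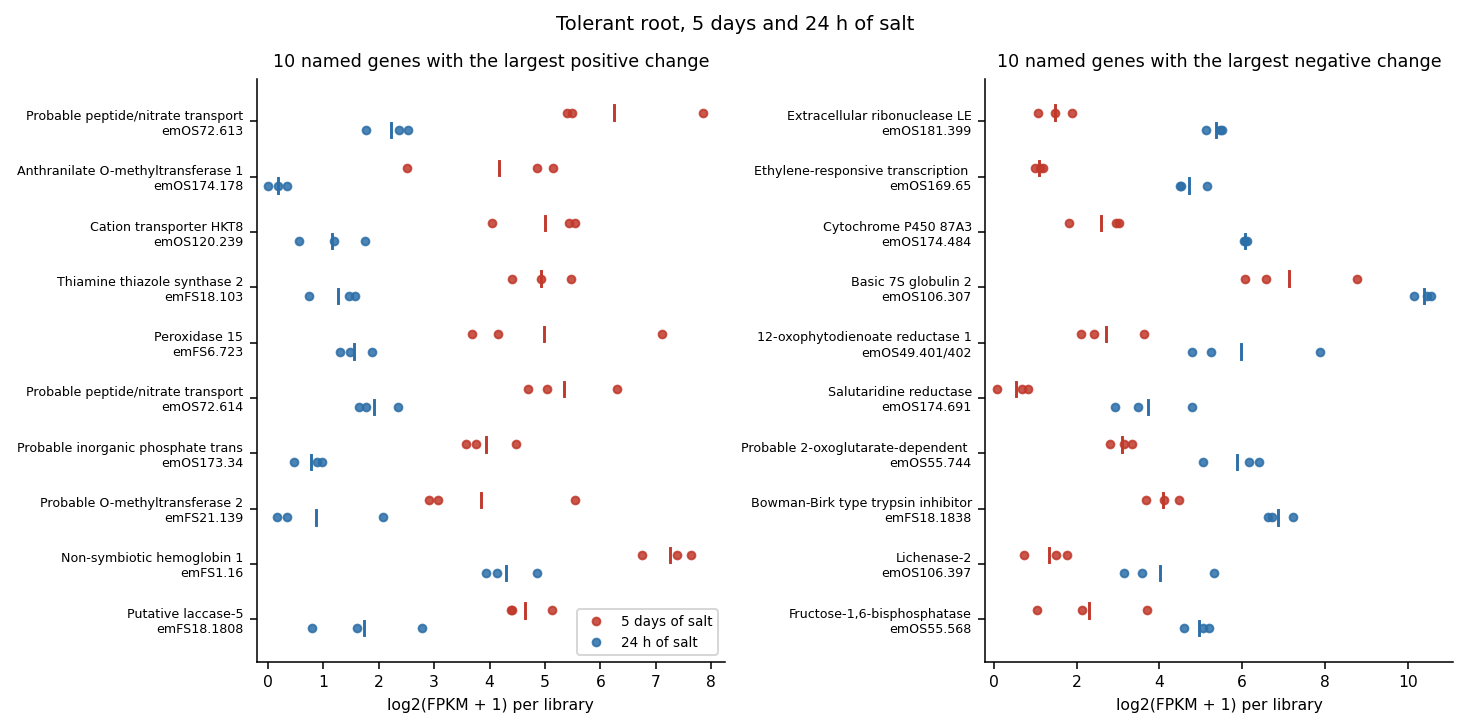
Level, as log2(FPKM + 1), in each of the 3 libraries at 5 days (upper points of each gene) and the 3 at 24 h (lower points) of the tolerant root, for the 10 named genes with the largest change in each direction, with the group mean as a vertical line. The genes were chosen among DEGs whose groups do not overlap, so the groups lie apart by choice. HKT8 has 15.6 to 45.5 FPKM at 5 days and 0.47 to 2.35 FPKM at 24 h. One library lies well above its own group for emOS72.613, peroxidase 15 and emOS49.401_emOS49.402.

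The course of these genes over the other times described both sets. The higher DEGs had a median level of 15.8 FPKM in non-stressed roots, 2.93 at 8 h, 2.71 at 12 h, 4.35 at 24 h, 5.53 at 48 h and 20.6 FPKM at 5 days. The lower DEGs had medians of 3.86, 53.3, 43, 36.1, 23 and 6.75 FPKM at the same times. All genes tested stayed between 10.6 and 11.9 FPKM by the same measure. The 8 h and 12 h libraries were in neither arm of the comparison, but they entered the filter on low values and the estimate of the spread, and the 6 compared libraries fitted alone gave 64 DEGs. The counts below are therefore descriptions. At 8 h, 119 of the 136 higher DEGs (87.5%) lay below every non-stressed library in all 3 libraries, as did 35% of all genes tested. At 8 h, 102 of the 110 lower DEGs (92.7%) lay above every non-stressed library, as did 28.2% of all genes. At 12 h these counts were 112 (82.4%, against 33.3% of all genes) and 93 (84.5%, against 21.5%). Most genes that were higher at 5 days than at 24 h thus had low levels in the first hours of salt, and most that were lower at 5 days had high levels then.

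**Figure D2:**
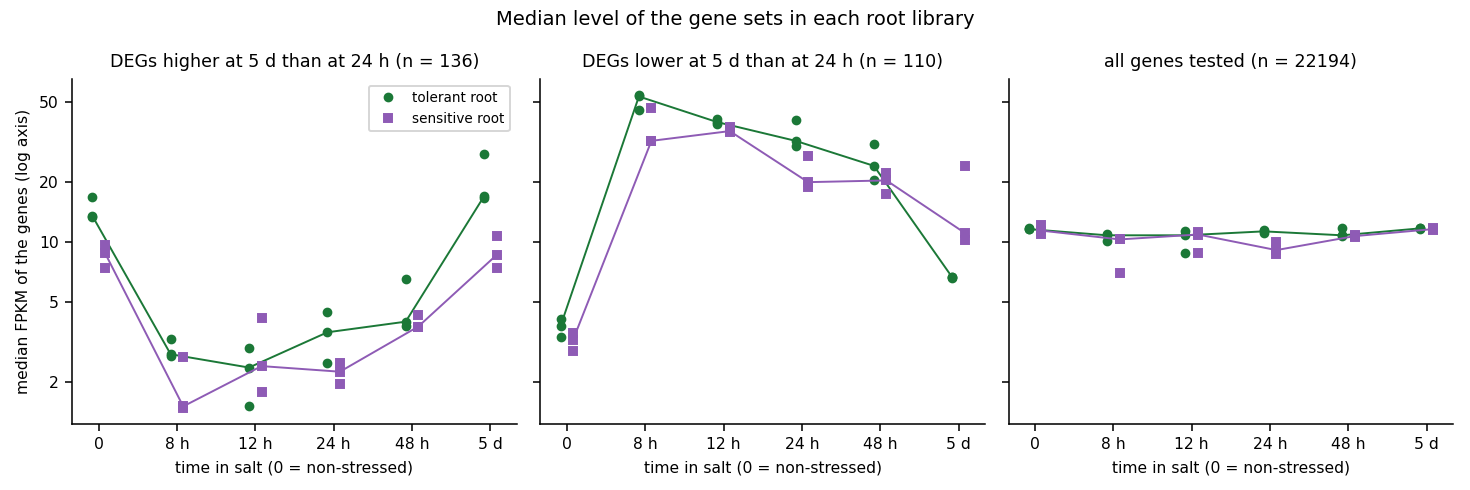
Median FPKM, on a log axis, over the 136 DEGs that were higher at 5 days, the 110 that were lower and all genes tested, as points for each root library of the tolerant and the sensitive accession, with lines that join the middle library of each time, from non-stressed (0) to 5 days of salt. In the tolerant root the higher DEGs have 13.4 to 16.8 FPKM non-stressed and 1.52 to 2.95 FPKM at 12 h. They have 16.6 to 27.4 FPKM at 5 days. The medians of all genes in the tolerant root run from 8.84 to 11.8 FPKM. The lowest is that of 12 h replicate 1, which also has the 1.52 FPKM. In the sensitive root the medians of all genes run from 7.04 to 12.1 FPKM.

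Set against non-stressed roots, 1234 genes (5.56%) were DEGs at 5 days, 663 higher (2.99%) and 571 lower (2.57%), and 2020 (9.1%) at 24 h, 1022 higher (4.6%) and 998 lower (4.5%). These comparisons share libraries with each other and with the one of 5 days against 24 h, so they are given only side by side. They also carry a difference in clock genes. CCA1 (emOS184.45), a morning gene of the plant clock, had 489, 482 and 335 FPKM at 5 days and 284, 295 and 288 FPKM at 24 h, but a mean of 1.17 FPKM in non-stressed roots. REVEILLE 2 (emFS4.266), a related clock factor, had 136, 161 and 116 FPKM at 5 days and 141, 152 and 145 FPKM at 24 h, and a mean of 3.25 FPKM in non-stressed roots. The evening gene PRR1 (emOS174.810) averaged 61.8 FPKM in non-stressed roots and lay between 5.94 and 10.2 FPKM in the 6 libraries. None of these passed between 5 days and 24 h, with limma adjusted p of 0.345, 0.938 and 0.659. Of 23 clock genes tested, 1 was a DEG (4.35%, against 0.496% of all genes lower), REVEILLE 1 (emFS22.37), a clock-controlled factor of auxin synthesis in Arabidopsis. It had 4.75, 4.27 and 2.68 FPKM at 5 days and 23, 19.7 and 16.6 FPKM at 24 h, and changed by -2.10 ± 0.43 on the log2 scale (SE, adjusted p = 0.00676), and -1.90 (adjusted p = 0.112) without both libraries that stood apart. The part of collection hour in the results was not tested.

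A sodium transporter of the HKT family was among the genes with the largest change. HKT8 (emOS120.239, chromosome 3, 12350379 to 12352988), in rice a transporter that takes sodium out of the xylem, had 42, 45.5 and 15.6 FPKM at 5 days and 0.47, 2.35 and 1.28 FPKM at 24 h. All 5-day libraries lay well above all 24 h libraries. The log2 fold change was 3.84 ± 0.59 (SE, n = 3 each, limma adjusted p = 0.000644). Its mean was 15.8 FPKM in non-stressed roots, 0.167 at 8 h, 0.0167 at 12 h and 6.11 FPKM at 48 h. Against non-stressed roots it fell at 24 h (log2 fold change -2.88, adjusted p = 0.000424), and at 5 days the value was 0.96 (adjusted p = 0.262).

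CHX20 (emFS9.232), which in Arabidopsis is a cation/proton exchanger of endomembranes, was the other DEG of the 94 genes of sodium, potassium and proton transport tested. It had 2.41, 2.85 and 3.13 FPKM at 5 days and 0.07, 0.23 and 0.07 FPKM at 24 h, a log2 fold change of 1.76 ± 0.20 (adjusted p = 1.07e-05). Both genes passed in every setting that left out a library, and without both libraries that stood apart. The list had 2.13% higher DEGs, against 0.613% of all genes, 0 lower ones and a median of -0.06. The genes named for the vacuolar and plasma membrane sodium/proton exchangers did not pass. NHX7 (emOS93.13), the name of the plasma membrane exchanger SOS1 in Arabidopsis, had 280, 246 and 206 FPKM at 5 days and 206, 181 and 198 FPKM at 24 h (log2 fold change 0.32, adjusted p = 0.511). The 3 genes named NHX2 had log2 fold changes of -0.44, -0.13 and 0.28.

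Genes of phytosiderophore synthesis and of the methionine cycle that feeds it included 7 higher DEGs of 30 tested (23.3%, against 0.613% of all genes), 0 lower ones and a median of 0.51. The list was put together after the values were seen. Replicate 3 at 5 days was the highest library for all of these but IRO2. Without it 2 genes of the list were DEGs, and 1 without both libraries that stood apart, with medians of 0.45 and 0.38. The count was 4 without replicate 1 or replicate 2 at 24 h and 9 without replicate 1 at 5 days.

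IRO2 (emFS4.942), in rice a transcription factor of the iron deficiency response, had 1259, 1440 and 909 FPKM at 5 days and 242, 243 and 221 FPKM at 24 h. The groups were far apart, at a log2 fold change of 2.32 ± 0.50 (adjusted p = 0.00878), and the call held without each of the 6 libraries, though not without both that stood apart (2.54, adjusted p = 0.0594). Its mean was 2965 FPKM in non-stressed roots and 208 at 12 h. A 5′-methylthioadenosine nucleosidase (emOS120.193), which recycles the by-product of phytosiderophore synthesis into methionine, had 262, 296 and 608 FPKM at 5 days and 67.2, 85.9 and 68.6 FPKM at 24 h. It changed by 2.28 ± 0.32 (adjusted p = 0.000392) and passed in every left-out setting. Mugineic-acid 3-dioxygenase (emOS36.173), in barley an enzyme that modifies mugineic acids, had 569, 751 and 1513 FPKM at 5 days and 147, 187 and 154 FPKM at 24 h. Its log2 fold change of 2.41 (adjusted p = 0.00848) was 2.01 without replicate 3 at 5 days, where the adjusted p was 0.0603.

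Deoxymugineic acid synthase 1 (emOS55.370), which makes the first phytosiderophore of the pathway, was among the most abundant, with 1674, 2048 and 2691 FPKM at 5 days and 618, 814 and 686 FPKM at 24 h. Its log2 fold change was 1.58 (adjusted p = 0.0099), and it was no longer a DEG without replicate 3 at 5 days (1.40, adjusted p = 0.0584) or replicate 1 at 24 h (1.49). Nicotianamine aminotransferase (emOS168.114), the enzyme just before it, changed by 1.52 (adjusted p = 0.012). That call ended without replicate 3 at 5 days (1.03, adjusted p = 0.104) and without replicate 2 at 24 h (1.39, adjusted p = 0.0755). The paired deoxymugineic acid dioxygenase genes emOS49.63 and emOS49.65 changed by 1.80 and 2.13, and each passed in 1 of the 6 left-out settings. Replicate 3 at 5 days moved them most, to 1.35 and 1.72. The yellow stripe transporter (emOS174.646), which takes up iron bound to phytosiderophores, had 255, 302 and 333 FPKM at 5 days and 95, 119 and 109 FPKM at 24 h. It did not overlap between the times but was under the fold threshold, at 1.45 (adjusted p = 0.0477). Of the wider list of 62 iron and metal uptake genes, 4 were DEGs (6.45%, against 0.613% of all genes higher), all higher and all of this pathway. There were 0 without replicate 3 at 5 days, 1 without replicate 1 or replicate 2 at 24 h and 2 without replicate 3 at 24 h or replicate 2 at 5 days.

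**Figure D3:**
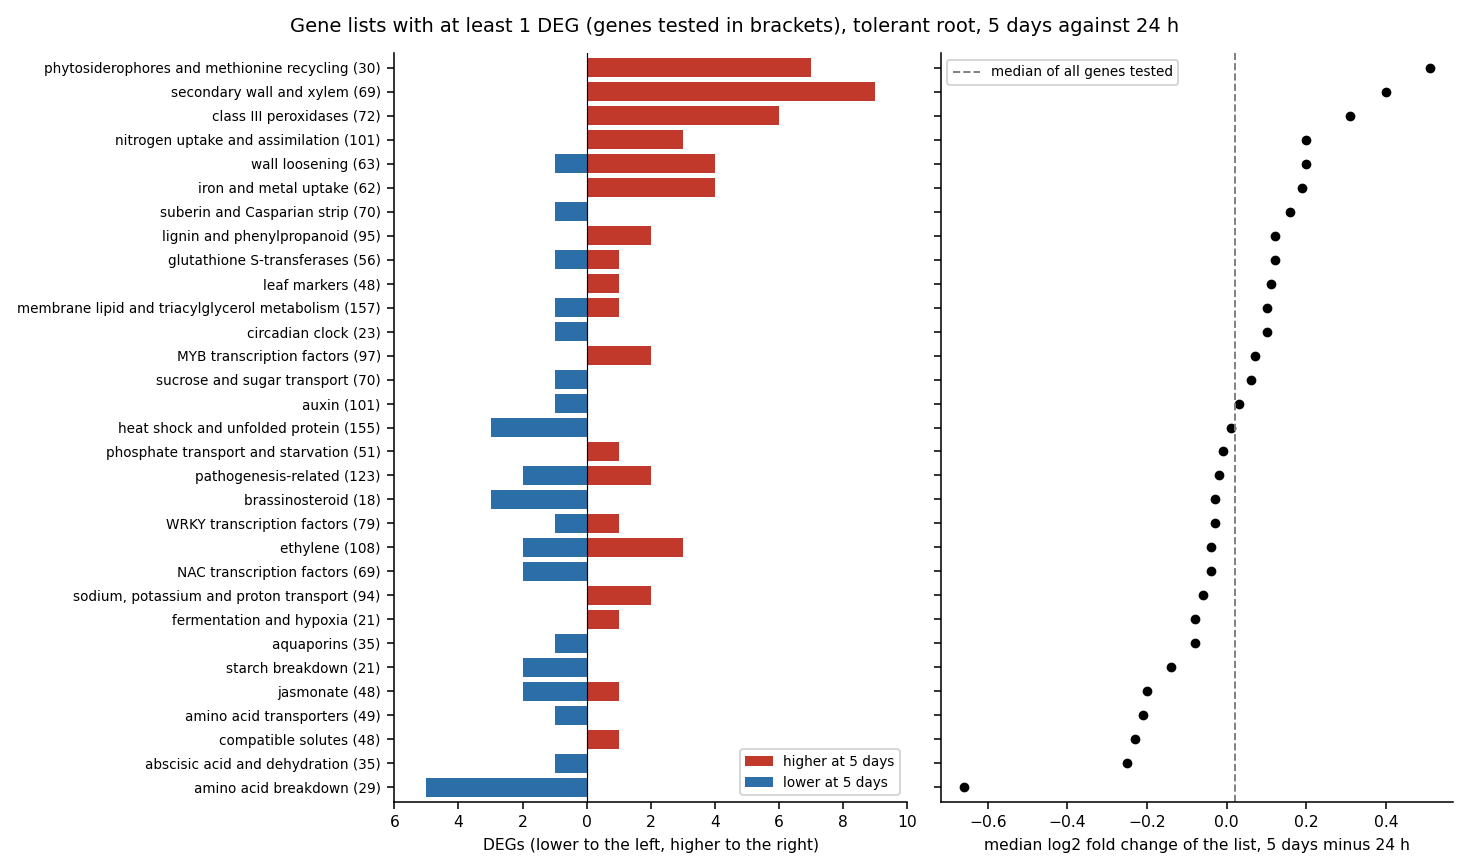
DEGs of each gene list with at least 1 DEG, as bars to the right for higher and to the left for lower at 5 days (left panel, number of genes), and the median log2 fold change of all tested genes of the list as points (right panel), with the median of all genes as a dashed line. The median is 0.51 for phytosiderophore synthesis and methionine recycling and -0.66 for amino acid breakdown, and lists between have medians nearer to that of all genes, 0.02.

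Transporters of other nutrients were among the largest changes. The neighbouring genes emOS72.613 and emOS72.614 (chromosome 8, 16022330 to 16029957 and 16051377 to 16058858) are named for the Arabidopsis locus At3g43790, a member of the ZIFL transporter family, to which the rice exporter of deoxymugineic acid also belongs. The gene emOS72.613 had 44, 41.3 and 230 FPKM at 5 days and 4.8, 2.43 and 4.18 FPKM at 24 h, the largest log2 fold change of all DEGs at 4.02 ± 0.69 (adjusted p = 0.00166). The gene emOS72.614 had 24.8, 31.7 and 77.4 FPKM at 5 days and 4.07, 2.43 and 2.12 FPKM at 24 h (3.42 ± 0.60, adjusted p = 0.00199). The highest library was again replicate 3 at 5 days. Reads of such neighbours may be shared, so the split between them is uncertain. Without both libraries that stood apart the values were 2.99 and 2.87, with adjusted p of 0.0747 and 0.0657.

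A phosphate transporter (emOS173.34) had 10.9, 12.5 and 21.3 FPKM at 5 days and 0.97, 0.39 and 0.85 FPKM at 24 h, a log2 fold change of 3.16 ± 0.50 (adjusted p = 0.000823). It was the DEG among 51 genes of phosphate transport and starvation (1.96%, against 0.613% of all genes higher), a list whose median was -0.01. NRT1/PTR family 6.3 (emOS55.1766), in Arabidopsis a nitrate transporter that also senses nitrate, had 43.5, 54 and 48.9 FPKM at 5 days and 21.4, 3.34 and 10.2 FPKM at 24 h. It changed by 2.27 ± 0.42 (adjusted p = 0.00316) and averaged 308 FPKM in non-stressed roots, so that the 5-day level lay below the non-stressed one (log2 fold change -2.64, adjusted p = 3.02e-05). The list of 101 genes of nitrogen uptake and assimilation had 3 higher DEGs (2.97%, against 0.613% of all genes), 0 lower ones and a median of 0.20. The other members called were the genes named for At3g43790, which the word nitrate in their name brought into the list, so NRT1/PTR family 6.3 was its only DEG named for nitrate transport alone. Without both libraries that stood apart the list had 0 DEGs.

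Other genes of the largest changes belonged to none of these groups. Non-symbiotic hemoglobin 1 (emFS1.16), of a class of plant hemoglobins known for removing nitric oxide, had 198, 166 and 107 FPKM at 5 days and 27.9, 14.2 and 16.5 FPKM at 24 h. The change was 2.95 ± 0.48 (adjusted p = 0.00117), and the 5-day level was close to the mean of 184 FPKM in non-stressed roots. An anthranilate O-methyltransferase (emOS174.178), which in maize makes the volatile methyl anthranilate, had 27.8, 34.6 and 4.72 FPKM at 5 days and 0.14, 0 and 0.27 FPKM at 24 h. Its log2 fold change was 3.99 ± 0.34 (adjusted p = 9.63e-08). It was listed at 0 in non-stressed roots and averaged 0.107 FPKM at 48 h, so of the 6 root conditions of the accession only 5 days had more than a trace.

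Thiamine thiazole synthase (emFS18.103), an enzyme of vitamin B1 synthesis, had 20.1, 29.3 and 43.4 FPKM at 5 days and 1.97, 0.67 and 1.77 FPKM at 24 h (3.67 ± 0.62, adjusted p = 0.00145). Its mean was 515 FPKM in non-stressed roots, so the 5-day level stayed far below that. A phosphoenolpyruvate carboxylase (emOS181.76), an enzyme of carbon fixation into organic acids, had 92.7, 101 and 72.4 FPKM at 5 days and 22.4, 29.1 and 22.2 FPKM at 24 h (1.81 ± 0.36, adjusted p = 0.0058). It was the DEG among 48 leaf marker genes tested and, unlike the sum of these markers, was lowest in replicate 3 at 5 days. These 4 genes passed without each of the 6 libraries, and without both that stood apart the thiamine gene had an adjusted p of 0.0567.

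**Figure D4:**
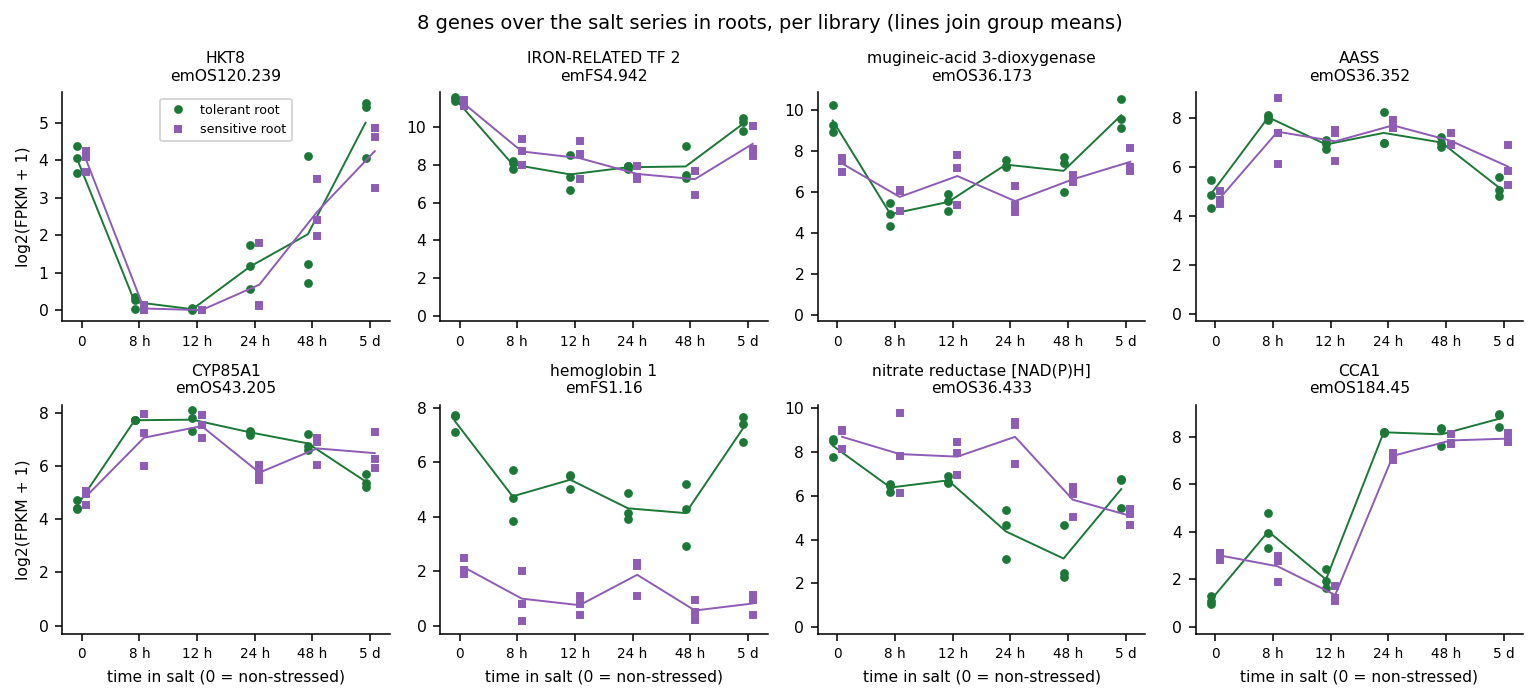
Level, as log2(FPKM + 1), of 8 named genes in each root library of the tolerant and the sensitive accession, from non-stressed (0) to 5 days of salt, with lines that join group means. HKT8 averages 15.8 FPKM in non-stressed tolerant roots, 0.0167 at 12 h and 6.11 FPKM at 48 h, and the tolerant points of hemoglobin 1 lie above the sensitive ones at every time.

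Genes of the secondary cell wall and xylem, a list also made after the values were seen, had 9 higher and 0 lower DEGs of 69 tested (13%, against 0.613% of all genes higher), with a median of 0.40. The median was 0.11 without replicate 3 at 5 days, 0.11 without both libraries that stood apart and 0.67 without replicate 2 at 5 days. Laccase-5 (emFS18.1808), of a family that polymerises lignin, had 20.1, 20 and 34 FPKM at 5 days and 5.89, 0.74 and 2.06 FPKM at 24 h (2.91 ± 0.44, adjusted p = 0.000599), and held without each library. Cellulose synthase subunit 4 (emFS18.1210), in rice a subunit for secondary walls, had 37.7, 43.4 and 85.5 FPKM at 5 days and 17.8, 3.93 and 7.92 FPKM at 24 h. Its change of 2.50 (adjusted p = 0.0378) passed in 1 of the 6 left-out settings. The value was 2.03 without replicate 2 at 24 h (adjusted p = 0.233) and 2.14 without replicate 3 at 5 days (adjusted p = 0.158). Subunits 9 (emOS91.22) and 7 (emOS90.161) of the same complex changed by 2.41 (adjusted p = 0.0486) and 2.60 (adjusted p = 0.0664), so subunit 7 did not pass. Replicate 2 at 24 h was the lowest 24 h library in all of these genes and replicate 3 at 5 days the highest 5-day one. The list had 1 DEG without replicate 2 at 24 h, without replicate 3 at 24 h, without replicate 3 at 5 days or without both libraries that stood apart, 5 without replicate 1 at 5 days and 4 without replicate 2 at 5 days.

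Class III peroxidases, which cross-link wall polymers, had 6 higher and 0 lower DEGs of 72 tested (8.33% higher, against 0.613% of all genes). Peroxidase 15 (emFS6.723) had 11.9, 16.7 and 138 FPKM at 5 days and 2.67, 1.46 and 1.8 FPKM at 24 h (3.43 ± 0.85, adjusted p = 0.0218). The call was lost without replicate 3 at 5 days (2.36, adjusted p = 0.167), replicate 2 at 24 h (adjusted p = 0.0971) or replicate 3 at 24 h (adjusted p = 0.0712). The list had 1 DEG without replicate 3 at 5 days or without replicate 2 at 24 h, 3 without replicate 3 at 24 h and 0 without both that stood apart, where its median of 0.31 became -0.15. Genes of wall loosening had 4 higher and 1 lower DEGs of 63 (6.35% and 1.59%, against 0.613% and 0.496% of all genes). The list had 1 DEG without replicate 3 at 5 days and 2 without replicate 2 or 3 at 24 h. Its median of 0.20 became -0.20 without replicate 3 at 5 days, -0.03 without replicate 2 at 24 h and -0.43 without both that stood apart. It was 0.35 to 0.46 without any other single library. The higher Casparian strip and leaf marker sums of replicate 3 at 5 days stood beside these values, and their part was not tested. The lower gene, expansin-like A2 (emOS55.1691), had 7.15, 6.54 and 9.68 FPKM at 5 days and 27, 47.9 and 30.3 FPKM at 24 h (-2.01 ± 0.36, adjusted p = 0.0021), and held without each library.

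Among the genes that were lower at 5 days, ribonuclease LE (emOS181.399), in tomato an extracellular enzyme of phosphate-starved cells, had the largest change. It had 2.69, 1.8 and 1.11 FPKM at 5 days and 44.6, 33.8 and 42.9 FPKM at 24 h, a log2 fold change of -3.88 ± 0.71 (adjusted p = 0.00274). Its mean was 6.71 FPKM in non-stressed roots and 123 FPKM at 8 h, so the 5-day libraries lay below even the non-stressed mean. Cytochrome P450 87A3 (emOS174.484) had 7.09, 6.79 and 2.52 FPKM at 5 days and 66.5, 68 and 64.9 FPKM at 24 h (-3.48 ± 0.56, adjusted p = 0.0011). Both genes passed without each library. RAP2-6 (emOS169.65), an ethylene response factor that Arabidopsis induces under stress, had 1.28, 1 and 1.17 FPKM at 5 days and 21.6, 34.4 and 21.9 FPKM at 24 h (-3.62 ± 0.97, adjusted p = 0.0347). Though its times were far apart, it passed in 0 of the 6 left-out settings, with adjusted p of 0.0682 to 0.151. It had averaged 144 FPKM at 8 h and 208 FPKM at 12 h. The basic 7S globulin gene emOS106.307 had 65.8, 94.2 and 435 FPKM at 5 days and 1131, 1417 and 1518 FPKM at 24 h (-3.26 ± 0.76, adjusted p = 0.0155). It passed in 2 of the 6 settings, and the adjusted p was 0.0931 without replicate 1 at 5 days, 0.0572 without replicate 2 at 5 days, 0.067 without replicate 2 at 24 h and 0.0581 without replicate 3 at 24 h.

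Of 18 brassinosteroid genes tested, 3 genes of synthesis were lower DEGs (16.7%, against 0.496% of all genes) and 0 were higher. The list was made after the values were seen. DET2 (emFS27.486), the steroid reductase of the pathway, had 6.14, 4.18 and 9.18 FPKM at 5 days and 22.7, 40.5 and 32.7 FPKM at 24 h (-2.15 ± 0.34, adjusted p = 0.000864). Cytochrome P450 85A1, which carries out a late oxidation step, was represented by emOS43.204 and emOS43.205. The first had 24.6, 25.3 and 20.6 FPKM at 5 days and 86.7, 73.8 and 88.1 FPKM at 24 h (-1.78 ± 0.34, adjusted p = 0.00403). The second had 39.7, 51.3 and 35.6 FPKM at 5 days and 159, 154 and 143 FPKM at 24 h (-1.84 ± 0.35, adjusted p = 0.00477). These adjacent models may be pieces of one gene. All passed without each single library, and DET2 also without both that stood apart, while the pair had adjusted p of 0.0529 and 0.0747 there. DET2 had averaged 2.47 FPKM in non-stressed roots and 85.6 FPKM at 8 h. The median of the list was -0.03.

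Breakdown of amino acids had 5 lower DEGs of 29 tested (17.2%, against 0.496% of all genes) and 0 higher ones. The median was -0.66, again in a list made after the values were seen. The 3 adjacent models of alpha-aminoadipic semialdehyde synthase, the enzyme that opens lysine breakdown, were among them and may be pieces of one gene. The model emOS36.352 had 27, 46.6 and 32.5 FPKM at 5 days and 125, 296 and 122 FPKM at 24 h (-2.23 ± 0.46, adjusted p = 0.00712). Without replicate 2 at 24 h, the highest library, it changed by -1.81 (adjusted p = 0.0699). GABA transaminase (emOS140.139), which breaks down gamma-aminobutyrate, had 9.11, 17 and 15.6 FPKM at 5 days and 38.2, 50.4 and 38.6 FPKM at 24 h (-1.58 ± 0.25, adjusted p = 0.000801). It came under the fold threshold without replicate 1 at 5 days (-1.32) or replicate 2 at 24 h (-1.45). The list had 0 DEGs without replicate 2 at 24 h, 2 without replicate 1 at 5 days and 1 without both that stood apart, where the median was -0.46. The vacuolar amino acid transporter AVT1A (emOS36.320) had 4, 4.41 and 3.01 FPKM at 5 days and 18.6, 34.6 and 16.1 FPKM at 24 h (-2.26 ± 0.43, adjusted p = 0.00439).

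Genes of starch breakdown, a list made after the values were seen as well, had 2 lower DEGs of 21 (9.52%, against 0.496% of all genes). They were an alpha-amylase (emFS0.39) and beta-amylase 1 (emOS90.175). Beta-amylase 1 had 6.59, 5.41 and 10 FPKM at 5 days and 50.7, 41.3 and 52.9 FPKM at 24 h (-2.59 ± 0.73, adjusted p = 0.045). Neither passed in any of the 6 left-out settings, with adjusted p of 0.0534 to 0.259 for the alpha-amylase and 0.0764 to 0.13 for beta-amylase 1. The sugar transporter SWEET1b (emOS81.45) had 0.14, 0.53 and 0.83 FPKM at 5 days and 4.5, 12.1 and 3.69 FPKM at 24 h (-2.24 ± 0.46, adjusted p = 0.00626). Replicate 2 at 24 h was the highest, and without it the change was -1.79 (adjusted p = 0.0654). The phospholipase LCAT3 (emOS91.599) had 5.19, 6.86 and 8.87 FPKM at 5 days and 37.3, 72.3 and 29.2 FPKM at 24 h (-2.49 ± 0.44, adjusted p = 0.00206), and held without each library.

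Hormone and regulator genes went both ways. Of 48 jasmonate genes 1 was higher (2.08%) and 2 were lower (4.17%), against 0.613% and 0.496% of all genes. All 3 carry the name 12-oxophytodienoate reductase 1, a relative of the enzyme that makes a jasmonate precursor. The higher one, emOS65.391, had 24.7, 21.4 and 39.3 FPKM at 5 days and 1.96, 10.8 and 4.65 FPKM at 24 h (2.29 ± 0.39, adjusted p = 0.00145). The lower ones, emOS49.400 and the merged model emOS49.401_emOS49.402, are neighbours. The merged model had 11.3, 3.33 and 4.37 FPKM at 5 days and 26.9, 235 and 37 FPKM at 24 h (-3.25 ± 0.82, adjusted p = 0.0254). That value rested on replicate 2 at 24 h, and was -2.30 without it (adjusted p = 0.232). It also lost the call without replicate 2 at 5 days (-2.95, adjusted p = 0.0834) or replicate 3 at 5 days (-3.11, adjusted p = 0.0878). The list had 5 DEGs without replicate 1 at 24 h, and 1 without replicate 2 at 24 h or replicate 2 or 3 at 5 days.

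Of 108 ethylene genes 3 were higher (2.78%, against 0.613% of all genes), all of ethylene synthesis. Another 2 were lower (1.85%, against 0.496%), both response factors. ACC synthase 7 (emFS24.505), which makes the ethylene precursor, had 17.2, 13.7 and 24 FPKM at 5 days and 4.46, 5.46 and 5 FPKM at 24 h (1.66 ± 0.34, adjusted p = 0.00665). Without replicate 3 at 5 days it changed by 1.46, under the fold threshold. The list had 0 DEGs without replicate 3 at 5 days, 2 without replicate 2 at 24 h or replicate 1 at 5 days, 3 without replicate 1 or 3 at 24 h and 7 without replicate 2 at 5 days. NAM-B1 (emOS101.35), a NAC factor that in wheat acts in senescence, had 85.6, 162 and 33.6 FPKM at 5 days and 262, 364 and 389 FPKM at 24 h (-2.09 ± 0.36, adjusted p = 0.0019). Without replicate 3 at 5 days the change was -1.49. The factor named Myb-related protein 2 (emFS1.791) had 11.5, 14.9 and 8.53 FPKM at 5 days and 2.79, 0.96 and 0.79 FPKM at 24 h (2.38 ± 0.29, adjusted p = 4.82e-05).

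Of 155 heat shock and unfolded protein genes 3 were lower (1.94%, against 0.496% of all genes), all small heat shock proteins. The list median was 0.01. The neighbours emFS24.70 and emFS24.71 changed by -2.59 (adjusted p = 0.0409) and -2.29 (adjusted p = 0.0383). The gene emFS24.70 had 14.8, 13.2 and 11.7 FPKM at 5 days and 54.3, 209 and 52.4 FPKM at 24 h, and a mean of 0.3 FPKM in non-stressed roots. Replicate 2 at 24 h was far above the other libraries. There were 0 DEGs in the list without it, 0 without replicate 3 at 5 days and 1 without replicate 2 at 5 days.

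Several groups known from salt responses had 0 DEGs, in limma at these thresholds. Over all genes tested, 15.6% had an unadjusted limma p under 0.05, counting both directions. For proline synthesis and ornithine metabolism all 5 genes tested had negative values, with a median of -0.68 and 2 at an unadjusted p under 0.05, of which ornithine aminotransferase (emOS43.53) had an adjusted p of 0.0124 but a log2 fold change of only -1.12. P5CS2 (emFS18.1840), the first enzyme of proline synthesis, had 71.3, 75.8 and 139 FPKM at 5 days and 159, 154 and 143 FPKM at 24 h (-0.73, adjusted p = 0.463). Both times lay above the non-stressed mean of 9.25 FPKM and below the 12 h mean of 324 FPKM. Of 36 antioxidant genes 16 had positive and 20 negative values, with a median of -0.05, and 3 of the positive and 5 of the negative ones had an unadjusted p under 0.05. Catalase 3 (emOS79.123) had 246, 254 and 420 FPKM at 5 days and 741, 721 and 712 FPKM at 24 h, so the times did not overlap, but its change of -1.28 had an adjusted p of 0.26. The 7 superoxide dismutases and their copper chaperone lay between -0.43 and 0.97. Of those, iron superoxide dismutase 2 (emFS4.1450) had 14.4, 11.7 and 12.7 FPKM at 5 days and 6.6, 5.53 and 6.08 FPKM at 24 h, at the 0.97 end (adjusted p = 0.0203, under the fold threshold).

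Of 197 cytosolic ribosomal protein genes 170 had negative values, with a median of -0.16, against 0.02 for all genes. Over the settings that left out libraries the median was -0.08 to -0.29. At an unadjusted p under 0.05 there were 3 positive and 2 negative genes. Of all genes tested 15.6% had such a p, counting both directions. Of 63 genes of senescence and autophagy 48 had negative values, with a median of -0.19, and 2 positive and 13 negative ones had such a p. The 44 root marker genes had 32 positive values and a median of 0.21, with 9 positive and 0 negative ones at that p. As this set shares words with the iron and metal uptake list, it is not separate from the iron genes above. Cell division genes had a median of 0.18 over 102 genes, with 15 positive and 4 negative ones at that p, and the median became -0.07 without both libraries that stood apart. The lists of polyamine metabolism (median -0.30), NADPH oxidases and alternative oxidases (0.23), flavonoid synthesis (0.13), cytokinin and gibberellin (0.14) and mitochondrial respiration (-0.03) had 0 DEGs too, and 0 to 9 genes in either direction at that p. The group 3 LEA gene emFS1.189, of a family that protects drying cells, had 694, 626 and 221 FPKM at 5 days and 683, 1614 and 473 FPKM at 24 h, with overlapping times (adjusted p = 0.677). Its non-stressed mean was 1.24 FPKM, so at both times it was far above that. Its list, abscisic acid and dehydration, had 1 lower DEG of 35 (2.86%, against 0.496% of all genes) and a median of -0.25. That gene, the desiccation-related PCC13-62 (emFS22.1329), had 26.9, 39.7 and 13.2 FPKM at 5 days and 53.2, 91.5 and 123.0 FPKM at 24 h (-1.76 ± 0.41, adjusted p = 0.0149). It lost the call without replicate 3 at 5 days (-1.34, adjusted p = 0.111), replicate 2 at 24 h (adjusted p = 0.0712) or replicate 3 at 24 h (adjusted p = 0.094).

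The remaining lists had few DEGs. Over all genes tested 0.613% were higher and 0.496% lower, and counts as small as those below are descriptions only. Pathogenesis-related genes had 2 higher and 2 lower of 123, of which a glucan endo-1,3-beta-glucosidase (emFS1.740) had 64.9, 58.1 and 39.3 FPKM at 5 days and 205, 179.6 and 275 FPKM at 24 h (-2.01 ± 0.40, adjusted p = 0.00566), and held without each library. Glutathione S-transferases (56 tested), lipid metabolism genes (157) and WRKY factors (79) had 1 higher and 1 lower DEG each. MYB factors (97) and lignin and phenylpropanoid genes (95) had 2 higher each, and compatible solutes (48) and fermentation and hypoxia (21) had 1 higher each. NAC factors (69) had 2 lower, and aquaporins (35), suberin and Casparian strip genes (70), amino acid transporters (49), auxin genes (101) and sugar transport (70) had 1 lower each. The medians of these lists lay between -0.23 and 0.16.

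The same comparison in the salt-sensitive root gave 1936 DEGs (8.72%), of which 1596 (7.19%) were higher and 340 (1.53%) lower at 5 days. Leaf markers moved with this change. Of 48 leaf marker genes tested, 25 were DEGs there, all higher, with a median of 1.72. Their sum was 2516, 936 and 585 FPKM in replicates 1, 2 and 3 of the sensitive root at 5 days and 540 to 584 FPKM at 24 h, and the chlorophyll a-b binding genes summed to 1162, 220 and 37.8 FPKM at 5 days and 5.29 to 12.8 FPKM at 24 h. Rubisco small subunit genes summed to 3.11 to 17.1 FPKM at 5 days and 0.31 to 1.53 FPKM at 24 h. Replicate 1 of the sensitive root at 5 days stood apart in these sums, and without it there were 1429 DEGs. In the sensitive root the secondary wall and xylem list had 31 higher and 0 lower DEGs of 69, with a median of 1.24. Class III peroxidases had 29 higher and 3 lower of 72 (median 1.35), and wall loosening 27 and 0 of 63 (1.28). Phytosiderophore and methionine genes had 5 and 0 of 30 (0.84). Of all genes tested there 7.19% were higher and 1.53% lower, with a median of 0.17. The part of the leaf markers in the results was not tested.

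Of the 246 DEGs of the tolerant root, 92 (37.4%) were also DEGs in the same direction in the sensitive root. They made up 4.75% of the DEGs there, and 2 genes were DEGs in opposite directions. Of the 136 higher DEGs 59 were higher DEGs in the sensitive root too, as were 7.19% of all genes. Of the 110 lower DEGs 33 were lower DEGs there too, as were 1.53% of all genes. Over the 136 higher DEGs the median change was 1.94 in the tolerant root, which chose them, and 1.30 in the sensitive root, with 115 of the same sign. Over the 110 lower DEGs the medians were -1.98 in the tolerant root and -0.64 in the sensitive root, with 70 of the same sign. The median of all genes tested in the sensitive root was 0.17, so positive signs were the more common there. These sign counts are therefore descriptions. HKT8 was 8.63, 27.8 and 23.5 FPKM at 5 days and 0.08, 2.45 and 0.1 FPKM at 24 h in the sensitive root, a change of 3.57 there (adjusted p = 0.000185). The difference between the accessions was 0.27 ± 0.84 for this gene (adjusted p = 0.884).

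**Figure D5:**
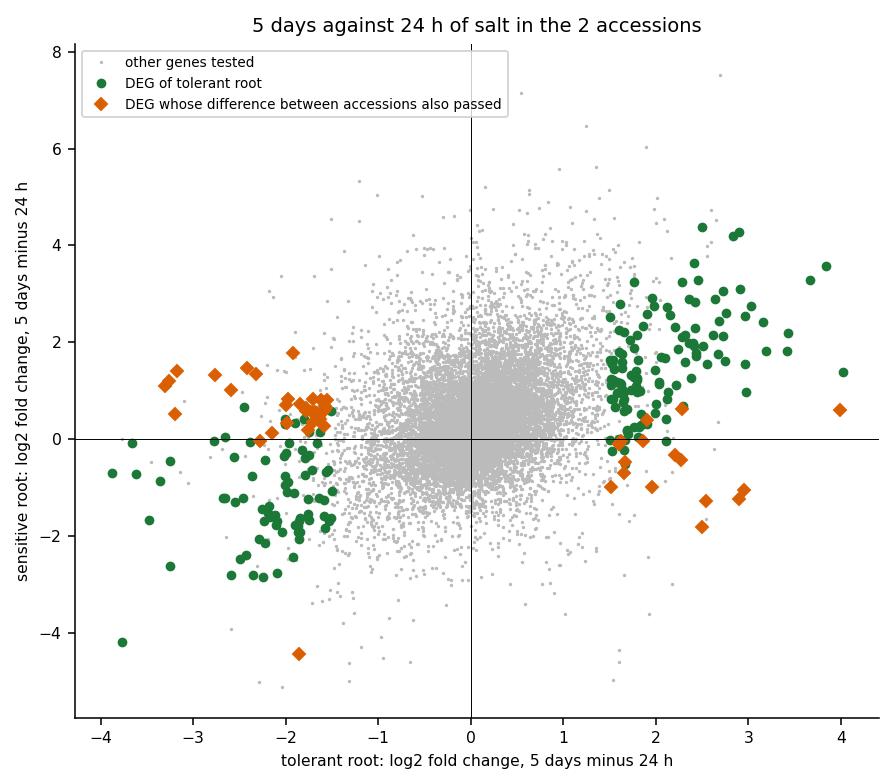
Log2 fold change at 5 days against 24 h in the tolerant root (horizontal axis) and in the sensitive root (vertical axis) of each gene tested, with circles for DEGs of the tolerant root and diamonds for those whose difference between accessions also passed. Across genes, which are not independent, Pearson's r is 0.34, and HKT8 lies at 3.84 and 3.57.

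The difference between the accessions itself was past the same thresholds for 548 genes (2.47%), 153 more positive (0.689%) and 395 more negative (1.78%) in the tolerant root. This count was 1024 without replicate 3 of the tolerant root at 5 days, 1189 without replicate 3 of the sensitive root at 5 days, 676 and 724 without replicate 2 at 24 h of the tolerant and of the sensitive root, and 166 to 333 without any single one of the other 8 libraries. Without replicate 1 of the sensitive root at 5 days, which had the highest leaf marker sum, it was 228, with 76 more positive and 152 more negative. Over the leaf markers the median difference was -1.98, with 0 more positive and 4 more negative past the thresholds, against a median of -0.15 over all genes, and their part was not tested. The difference was past them for 50 of the 246 DEGs, 18 more positive and 32 more negative. These 246 were chosen for their change in the tolerant libraries, which are also part of the difference, so this count is a description. Hemoglobin 1 (emFS1.16) had 0.3, 0.91 and 1.18 FPKM at 5 days and 3.57, 1.14 and 3.95 FPKM at 24 h in the sensitive root, against the much higher levels in the tolerant root given above. The tolerant change exceeded the sensitive one by 4.01 ± 0.68 (adjusted p = 0.00283). DET2 (emFS27.486) had 15.3, 15.1 and 43.5 FPKM at 5 days and 18, 27 and 16.1 FPKM at 24 h in the sensitive root, with overlapping times, and a difference of -2.27 (adjusted p = 0.00961). The models emOS43.204 and emOS43.205 of cytochrome P450 85A1 differed by -2.42 and -2.57. Alpha carbonic anhydrase 7 (emOS181.582) had 2.21, 1.96 and 7.1 FPKM at 5 days and 16.4, 11.5 and 18.4 FPKM at 24 h in the tolerant root. In the sensitive root it had 42.1, 27.3 and 17.9 FPKM at 5 days and 5.06, 8.67 and 8.89 FPKM at 24 h, so it fell in the tolerant root and rose in the sensitive root (difference -3.70, adjusted p = 0.000694). All of these differences passed without each of the 12 libraries of both accessions.

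Some genes of nitrate uptake and assimilation, chosen after their values were seen, also differed between the accessions. The high-affinity nitrate transporter gene emOS79.107 (NRT2.2) had 19.1, 19.8 and 16.5 FPKM at 5 days and 8.82, 3.01 and 6.58 FPKM at 24 h in the tolerant root, which did not pass (1.54, adjusted p = 0.128). In the sensitive root it had 4.96, 8.66 and 18.4 FPKM at 5 days and 469, 141 and 523 FPKM at 24 h, and fell by 4.98 on the log2 scale (adjusted p = 2.92e-06). The difference was 6.51 ± 0.77 (adjusted p = 0.000111). Nitrate reductase (emOS36.433) had 109, 104 and 42.2 FPKM at 5 days and 39.5, 7.65 and 24.5 FPKM at 24 h in the tolerant root (1.93, adjusted p = 0.139). In the sensitive root it had 24.4, 35 and 41.5 FPKM at 5 days and 669, 172 and 610 FPKM at 24 h (-3.61, adjusted p = 0.000647), a difference of 5.54 (adjusted p = 0.00342). Replicate 2 of the sensitive root at 24 h was the lowest of its group in both, and both differences passed without each of the 12 libraries. In the tolerant root emOS79.107 had averaged 365 FPKM non-stressed, and lay below that at 24 h (-5.76) and at 5 days (-4.22). Over the whole list of 101 nitrogen genes the difference passed for 15 genes more positive and 10 more negative in the tolerant root. Of all genes tested 0.689% were more positive and 1.78% more negative. The median of the list was -0.15, which is also the median over all genes.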

How the data were processed

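RNA was extracted by the authors with a plant RNA kit and sequenced on a HiSeq. Per the labels, reads were trimmed with Trimmomatic 0.32 and aligned with HISAT2 2.1.0. These sources name no genome build and no strand setting. Values were deposited as FPKM per gene, normalised by the authors to transcript length and mapped fragments and given to 2 decimals. Fragment counts could not be used, so no count model was run. Columns of values that belonged to no sample numbered 0.

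Libraries were grouped by the labels. Genes with at least 1 FPKM in at least 3 of 36 root libraries (22194 of 27743 models) were tested on log2(FPKM + 1) with limma 3.58.1 in R 4.3.3, with 12 groups in one model, a mean-variance trend and Benjamini-Hochberg adjustment over all genes tested. DEGs had an adjusted p of 0.05 or less and changed by 1.5 or more on the log2 scale, the thresholds of the study. Tables and plots used Python 3.11.15, pandas 2.3.3, numpy 2.4.6 and matplotlib 3.10.9. An exact permutation test of 3 against 3 libraries cannot go below p = 0.1 and was not used. The code was tested on simulated data.

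Gene names came from the Swiss-Prot matches of the deposited table. Genes were named by rule: the 10 largest named DEGs in each direction without overlap, up to 4 DEGs of a list and direction, the 5 largest differences between accessions in each direction among DEGs, and catalase, superoxide dismutase and proline genes. The rule gave 96 genes, and 21 more were chosen after their values were seen. There were 35 lists defined by words in names, and 5 were added after the values were seen. The members and lists were chosen with earlier results of these data known. Alternatives were other pseudocounts, filters, scalings, fold thresholds, library sets, array weights, a replicate block and leaving out each library. Leaving out both libraries that stood apart was added after the data were seen. Leaf libraries and the authors' metabolite measurements were not analysed here. The number of libraries limits the precision.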

Additional observations from a re-analysis of the deposited data

Results flagged for a closer look

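In each gene below, the change at 5 days against 24 h differed between the tolerant and the sensitive root by the test of the difference itself (limma, adjusted p of 0.05 or less and at least 1.5 on the log2 scale, 3 libraries per group). Values are the tolerant minus the sensitive log2 fold change, with no explanation weighed.

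Of the 101 nitrogen genes tested, 15 were more positive and 10 more negative in the tolerant root, against 0.689% and 1.78% of all genes. The nitrate genes named here, chosen after their values were seen, had positive differences. They were 6.51 for emOS79.107 and 5.95 for emOS79.101 (NRT2.2), 6.19 for emFS18.927 (NRT2.3) and 3.41 for their activating protein emOS144.161. Nitrate reductase emOS36.433 had 5.54, nitrite reductase emOS36.473 had 3.75, and the glutamine synthetases emFS6.255 and emOS55.289 had 5.17 and 3.55. All of these passed without each of the 12 libraries except emOS55.289, which passed in 8 of 12 and was lost without replicate 1 of either root at 5 days or replicates 1 or 3 of the sensitive root at 24 h. The sodium/proton exchanger gene emOS93.13 (NHX7) differed by 1.55 and also passed in 8 of 12.

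Positive differences among the other named genes were 3.39 for the O-methyltransferase emOS174.178, 4.01 for hemoglobin 1 emFS1.16, 2.70 for NRT1/PTR 6.3 emOS55.1766, 2.35 for ACC synthase 7 emFS24.505 and 4.32 for the pyrophosphate-dependent phosphofructokinase subunit emOS58.107, all of which passed in 12 of 12. Those of the ACC oxidase emOS94.157 (4.14), the RADIALIS-like gene emOS55.465 (3.80) and the methylthioadenosine nucleosidase emOS120.193 (1.66) passed in 3, 4 and 5 of 12.

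Negative differences that passed in 12 of 12 were -2.27 for DET2 emFS27.486, -2.57 and -2.42 for emOS43.205 and emOS43.204 (cytochrome P450 85A1), -3.70 for alpha carbonic anhydrase 7 emOS181.582 and -3.66 for the FTSH 6 protease gene emOS49.307. Those that did not were -4.47 for basic 7S globulin emOS106.307 (7 of 12), -4.08 for the trypsin inhibitor emFS18.1838 (8), -3.47 for catalase 3 emOS79.123 (8), -3.72 for the salutaridine reductase gene emOS174.691 (4), -2.20 for P5CS2 emFS18.1840 (3) and -3.60 for beta-amylase 1 emOS90.175 (2).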

How the results depend on the processing

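The count of 246 DEGs at 5 days against 24 h in the tolerant root was 118 with a pseudocount of 5, 483 with a log2 threshold of 1, 492 with array weights, 64 with the 6 compared libraries alone and 62 without both libraries that stood apart, and 119 to 251 when 1 library was left out. It stayed within 1.5 times under the other pseudocount, filters and scalings and the 18-library fit, and no named gene that passed changed direction. The sensitive count of 1936 was 3262 and 759 with pseudocounts of 0.1 and 5, 1189 with genes averaging 5 FPKM or more, 3457 with a threshold of 1, and 1429 to 2441 with 1 library left out. The difference count of 548 was 847 and 250 with those pseudocounts, 2634 with array weights, 1222 without both libraries, and 166 to 1189 with 1 left out. Against non-stressed roots, 2020 at 24 h was 1109 with a pseudocount of 5 and 3593 with a threshold of 1 (1828 to 2098 with 1 left out), and 1234 at 5 days was 1868 and 644 with pseudocounts of 0.1 and 5 and 2373 with a threshold of 1 (1156 to 1305). The causes were not tested.

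The replicate numbers are only shared numbers: deviations of same-numbered libraries at the 2 times correlated at -0.17, 0.16 and 0.08. With a replicate block in the fit of 36 libraries there were 212, 1915 and 495 DEGs for the tolerant, sensitive and difference tests. In fits of the compared libraries alone the block gave 1, 1 and 48. The median-ratio scaling moved the median of all genes in the sensitive root to 0.01 and that of the difference to -0.00, against 0.17 and -0.15. Without counts, precision at low FPKM is unknown beyond the spread of 3 libraries.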
